A study of Homo sapiens with 36 samples.

Results

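Metallothioneins were examined in HepG2, an established human liver tumour line, during exposure to acetaminophen (APAP), an analgesic that injures the liver in overdose. The members were given by gene name, under a rule that reads no measured value: the 8 Ensembl gene identifiers listed for MT2A, MT1X, MT1E, MT1F, MT1G, MT1M, MT1H and MT1A. Members and tests were nonetheless chosen with earlier results of these data known. The deposited table held 4 of these 8 among its 18919 genes: MT2A (ENSG00000125148_at), MT1E (ENSG00000169715_at), MT1G (ENSG00000125144_at) and MT1M (ENSG00000205364_at). MT1X (ENSG00000187193_at), MT1F (ENSG00000198417_at), MT1H (ENSG00000205358_at) and MT1A (ENSG00000205362_at) were not analysed here, so nothing below describes the family as a whole. The pairing of identifier and symbol is the one given with that list, since the table itself carries identifiers only.

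Expression was measured on 36 Affymetrix arrays. Cells received fresh medium with 10 mM APAP, with 0.5 mM APAP or with the solvent DMSO at 0.5%, and were labelled as harvested after 12, 24, 48 or 72 h, with 3 arrays for each of the 12 groups. The labels do not settle whether DMSO was also present in the APAP media, so a part of the solvent in any difference cannot be told apart from that of the compound. The extraction text speaks of 24 h for all samples, and the times used here rest on the titles and time labels. All groups share the cell line, and none of the arrays came from another line or from primary hepatocytes. All values are log2 levels, a difference of 1 being a 2-fold change of the array signal, and the number of arrays limits their precision.

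Metallothioneins are small, cysteine-rich proteins that bind zinc and copper and also cadmium and other toxic metals, and their thiol groups react with oxidants. Their genes are switched on by zinc through the transcription factor MTF1, which binds short promoter words called metal response elements (MREs), and several members also respond to glucocorticoids and oxidative stress. Liver is among the tissues in which they are best known, for zinc storage and metal detoxification. MT2A is the broadly expressed human isoform, and MT1E, MT1G and MT1M belong to the MT1 subfamily, whose coding sequences are nearly alike.

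The 8 genes lie on chromosome 16 in RefSeq GRCh38.p14, in the order MT2A, MT1E, MT1M, MT1A, MT1F, MT1G, MT1H and MT1X. Genes lying between them were not looked up. The promoter of MT2A, the measured member for which the RefSeq promoter table has an entry, is shown because it is the one promoter whose metal-response words can be set beside measured levels. It covers chr16:56608334-56608633 on the plus strand, 250 bases before to 50 after the gene's start. Capitals mark matches to the MRE core words TGCACNC and TGCGCNC on either strand.

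MT2A: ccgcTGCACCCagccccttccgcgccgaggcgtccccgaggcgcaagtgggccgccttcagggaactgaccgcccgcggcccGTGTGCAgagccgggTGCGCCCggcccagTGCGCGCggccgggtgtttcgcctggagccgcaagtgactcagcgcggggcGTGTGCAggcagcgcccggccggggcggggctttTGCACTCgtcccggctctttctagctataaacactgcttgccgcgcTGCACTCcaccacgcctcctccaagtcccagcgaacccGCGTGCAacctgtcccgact

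The window held 8 such matches, none overlapping another, and one of them lay after the gene's start. A match to either word occurred in 29.6% of the 35116 promoters of this length, and 0.0199% of them held as many or more. The same window held 1 match to the AP-1 word TGACTCA (4.95% of promoters, both strands) and 1 to TATAAA (11.5%). These are matches of letters, and no binding was measured. MT1E, MT1G and MT1M are named only.

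One array stood apart for all 4 genes. In replicate 1 of DMSO at 48 h the log2 level was 12.62 for MT2A, 4.32 for MT1E, 8.06 for MT1G and 1.99 for MT1M, whereas the other DMSO arrays of that time gave 13.70 and 13.76 for MT2A, 6.86 and 6.70 for MT1E, 10.54 and 10.92 for MT1G, and 2.71 and 2.80 for MT1M. Its MT1G level lay within the range of the DMSO arrays of 72 h, 7.82 to 8.57, and its MT2A level lay between the ranges of the 2 times. The mean log2 level of the dap spike-in control rows was 3.15 on that array, against 11.8 and 13.1 on the others of its group, and 5 more arrays had a mean under 7 (3 of them replicate 1 of 10 mM, for 12, 48 and 72 h, then replicate 2 of 10 mM for 24 h and replicate 1 of DMSO for 24 h). The lowest mean, 2.93, was that of replicate 1 of 10 mM at 72 h. Its level was 13.05 for MT2A (13.16 and 12.93 on the other arrays of its group) and 3.37 for MT1E (3.33 and 3.21). For MT1G it was 7.68 (7.44 and 7.72) and for MT1M 2.12 (2.27 and 2.52). Replicate 1 of DMSO at 48 h also widens the spread that all 12 groups share in the fit. The main results that rest on it are therefore given with and without it. Correlations over group means and most shares of all genes called are given with it only. Many adjusted p-values, which it enters through the shared spread, are also given with it only. The part of the spike-ins in any result was not tested.

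MT2A and MT1G lay above the median of every array. MT1E lay below the array median, which ran from 3.32 to 3.46, on 3 of 36 arrays, and MT1M on 34 of 36. The files hold no detection call, so differences of MT1M, and of MT1E at 72 h, are differences between dim signals. Because MT1 transcripts are nearly alike and the probe set definition is not given in the sources used here, signal shared between members cannot be told apart.

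**Figure D1:**
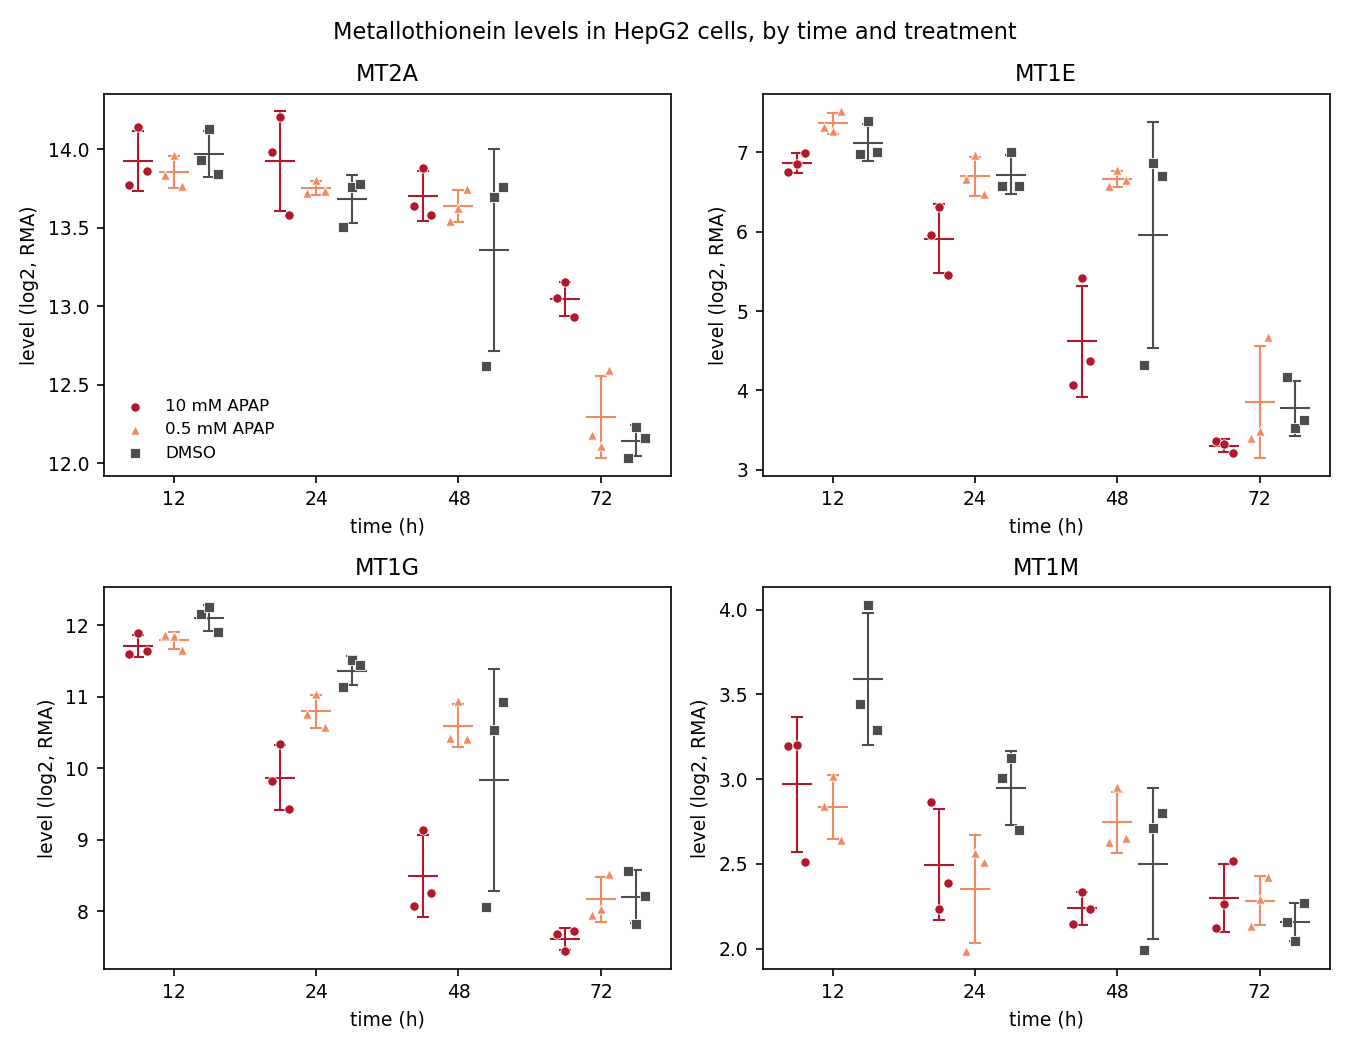
Log2 level of the 4 measured metallothionein genes (y axis, 1 panel per gene) against hours of exposure (x axis). Each point is 1 array, horizontal marks show group means and bars show the SD (n = 3). MT1G and MT1E decline with time in all 3 treatments, and at 48 h their 10 mM APAP arrays lie below all 0.5 mM arrays, and MT2A stays higher at 72 h in 10 mM APAP than in the other groups.

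The first question was how the levels moved with time in culture. MT1E and MT1G were among the genes that fell furthest between 12 and 72 h, at both doses and in the solvent. In 10 mM APAP the MT1G mean was 11.71 ± 0.16, 9.87 ± 0.45, 8.49 ± 0.57 and 7.61 ± 0.15 after 12, 24, 48 and 72 h (log2 level, SD, n = 3). In 0.5 mM APAP it was 11.79 ± 0.12, 10.80 ± 0.23, 10.59 ± 0.30 and 8.17 ± 0.31 at the same times. In DMSO it was 12.11 ± 0.18, 11.37 ± 0.20, 9.84 ± 1.55 and 8.21 ± 0.37, and the 48 h mean was 10.73 without replicate 1. The fall was thus spread over every interval at 10 mM, whereas at 0.5 mM most of it lay between 48 and 72 h, a step of -0.88 at 10 mM against -2.43 at 0.5 mM. In DMSO that last step was -1.64, or -2.53 without replicate 1 at 48 h.

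Between 12 and 72 h the MT1G log2 level changed by -4.09 in 10 mM APAP (17.1-fold lower at 72 h), by -3.62 in 0.5 mM and by -3.90 in DMSO (14.9-fold lower), each with an SE of 0.40. Only 2 of the 18919 genes, MT1G included, had a difference this low or lower in 10 mM APAP, 49 in 0.5 mM and 89 in DMSO. For MT1E the log2 change was -3.56 in 10 mM (11.8-fold lower at 72 h), -3.51 in 0.5 mM and -3.35 in DMSO (10.2-fold lower), SE 0.41. Counting MT1E itself, 3, 65 and 136 genes in that order of treatments had a difference as low. Whether the course of either dose differed from that of DMSO was asked by the F tests of the effect over times, given further on. Over all 36 arrays, unweighted, neither gene passed at either dose.

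MT2A followed a flatter course. Its means in 10 mM APAP were 13.92 ± 0.19, 13.93 ± 0.32, 13.70 ± 0.16 and 13.05 ± 0.11 at 12, 24, 48 and 72 h, in 0.5 mM APAP 13.86 ± 0.10, 13.75 ± 0.04, 13.64 ± 0.10 and 12.29 ± 0.26, and in DMSO 13.97 ± 0.15, 13.68 ± 0.15, 13.36 ± 0.64 (13.73 without replicate 1) and 12.14 ± 0.10. Most of its decline fell in the last interval, with steps of -0.65 at 10 mM, -1.34 at 0.5 mM and -1.22 in DMSO (-1.58 without replicate 1 at 48 h) on the log2 scale. Over the whole course the change was -0.88 in 10 mM and -1.83 in DMSO (3.54-fold lower at 72 h), SE 0.19. For MT1M, near the bottom of the signal range, the log2 level at 72 h minus that at 12 h was -0.67 in 10 mM, -0.55 in 0.5 mM and -1.43 in DMSO (2.70-fold lower at 72 h), SE 0.21.

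The moderated F test of limma over the 4 times called all 4 genes in 10 mM APAP, where 25.3% of all genes were called. Benjamini-Hochberg adjusted p was 0.00125 for MT2A, 3.69e-07 for MT1E, 2.18e-08 for MT1G and 0.0300 for MT1M. In 0.5 mM APAP 3 of the 4 were called against 33.9% of all genes (MT2A 9.62e-08, MT1E 1.12e-07, MT1G 1.16e-07), and MT1M had an adjusted p of 0.0783, or 0.0409 without replicate 1 of DMSO at 48 h. In DMSO all 4 were called against 30.7% (MT2A 1.49e-08, MT1E 2.47e-07, MT1G 1.09e-08, MT1M 1.24e-05). Without replicate 1 of DMSO at 48 h all 4 stayed called in DMSO, with adjusted p up to 5.83e-06. The MT1M call in 10 mM did not hold without replicate 1 or 2 of 10 mM at 12 h (adjusted p 0.190 and 0.194), without replicate 1 at 48 h (0.0554) or without replicate 1 at 72 h (0.0520).

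Ranked from the lowest of the 12 groups upwards, the MT1G means began with the 72 h groups (10 mM 7.61, 0.5 mM 8.17, DMSO 8.21) and 10 mM at 48 h (8.49). DMSO at 48 h (9.84), 10 mM at 24 h (9.87), 0.5 mM at 48 h (10.59) and at 24 h (10.80) and DMSO at 24 h (11.37) followed, and the 12 h groups stood highest (10 mM 11.71, 0.5 mM 11.79, DMSO 12.11). The place of DMSO at 48 h rested on replicate 1: without it the mean of 10.73 lay between those of 0.5 mM at 48 h and at 24 h, and 10 mM at 48 h and at 24 h became neighbours, without overlap. Neighbours in this order whose arrays did not overlap were 10 mM and 0.5 mM at 72 h, 10 mM at 24 h and 0.5 mM at 48 h, 0.5 mM and DMSO at 24 h, 10 mM at 12 h and DMSO at 24 h, and 0.5 mM and DMSO at 12 h. The share of all genes that separate in this way was not counted, so the neighbours named here only describe the arrays. In the same ranking of MT1E the neighbours without overlap were 10 mM (3.30) and DMSO (3.78) at 72 h, and 10 mM at 24 h (5.91) and 48 h (4.62). For MT2A they were 10 mM (13.05) and 0.5 mM (12.29) at 72 h, and for MT1M 10 mM (2.97) and DMSO (3.59) at 12 h. With that array left out, DMSO at 48 h had means of 6.78 for MT1E, 13.73 for MT2A and 2.76 for MT1M. It then stood higher in all 3 rankings, which made 10 mM at 24 h and 0.5 mM at 48 h neighbours without overlap for MT1E, and 10 mM at 72 h and 0.5 mM at 48 h for MT2A. Neighbours were set by the observed means, and several pairs differ in both dose and time. Dose and hours in culture cannot be told apart in those pairs.

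The main comparison set the high dose against the solvent at each time. In 10 mM APAP, MT1G was lower than in DMSO at 24 and 48 h, MT1E at 48 h and MT1M at 12 h, and MT2A was higher at 72 h. Measured members therefore differed from DMSO in both directions.

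MT1G gave the clearest early difference. At 24 h its log2 levels were 9.83, 10.34 and 9.44 in 10 mM APAP and 11.14, 11.52 and 11.44 in DMSO. Every treated array lay below every DMSO array, and the mean was 2.82-fold lower (log2 difference -1.50 ± 0.40 SE, limma, Benjamini-Hochberg adjusted p = 0.00415). At 12 h the 10 mM arrays, 11.59, 11.89 and 11.65, lay just below the DMSO arrays, 12.16, 12.26 and 11.90. The log2 difference of -0.40 had an adjusted p of 0.558. The 0.5 mM arrays also lay below DMSO at 12 h (log2 difference -0.32). There 10 mM minus 0.5 mM APAP was -0.080 (limma, adjusted p 0.930), and the arrays overlapped. The 24 h call held under all 45 alternative settings run, with adjusted p up to 0.0323. Replicate 2 of 10 mM and replicate 1 of DMSO at 24 h had weak spike-ins, and without the 6 weak arrays the difference was -1.85 (adjusted p 6.28e-06).

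MT1E, the other MT1 gene well above the array medians at that time, had log2 levels of 5.96, 6.31 and 5.45 in 10 mM APAP and 6.58, 6.9998 and 6.58 in DMSO at 24 h. The groups did not overlap, and the log2 difference of -0.81 (95% interval -1.64 to 0.023) did not pass the test over all groups (adjusted p 0.154). Without replicate 1 of DMSO at 48 h, which enters this value through the shared spread alone, the adjusted p was 0.0233. At 12 h the 10 mM levels of 6.75, 6.86 and 6.99 overlapped the DMSO levels of 6.97, 7.39 and 7.001 (log2 difference -0.26, adjusted p 0.736).

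At 48 h both MT1 genes were lower at the high dose, and the size rested on single arrays. MT1G levels were 8.08, 9.14 and 8.26 in 10 mM APAP and 8.06, 10.54 and 10.92 in DMSO, a log2 difference of -1.35 ± 0.40 (2.55-fold lower, adjusted p 0.00915). MT1E levels were 4.07, 5.41 and 4.37 in 10 mM APAP and 4.32, 6.86 and 6.70 in DMSO, a log2 difference of -1.34 ± 0.41 (2.54-fold lower, adjusted p 0.0104). In both genes the groups overlapped only through replicate 1 of DMSO. Without that array the log2 differences were -2.24 ± 0.26 for MT1G (adjusted p 4.89e-08) and -2.16 ± 0.31 for MT1E (1.59e-06), and without all 6 arrays with weak spike-ins they were -2.03 and -1.89. Neither call held with any one of 3 other arrays left out. Without replicate 1 of 10 mM the adjusted p was 0.0570 for MT1G and 0.0769 for MT1E, without replicate 2 of DMSO 0.0857 and 0.121, and without replicate 3 of DMSO 0.140 and 0.101. Fitted on the 9 arrays of 48 h alone, the adjusted p was 0.157 for MT1G and 0.135 for MT1E.

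At 72 h neither MT1G nor MT1E was called. MT1G levels were 7.68, 7.44 and 7.72 in 10 mM APAP and 8.57, 7.82 and 8.22 in DMSO, and MT1E levels were 3.37, 3.33 and 3.21 in 10 mM and 4.17, 3.52 and 3.63 in DMSO. In both genes the 10 mM arrays lay below the DMSO arrays, but the log2 differences of -0.59 for MT1G and -0.47 for MT1E did not pass (adjusted p 0.305 and 0.442). MT1G had an adjusted p of 0.0480 without replicate 1 of DMSO at 48 h.

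MT2A, the broadly expressed isoform, differed from DMSO the other way at the last time. Its log2 levels at 72 h were 13.05, 13.16 and 12.93 in 10 mM APAP and 12.04, 12.23 and 12.16 in DMSO. The groups were clearly apart, and the mean was 1.87-fold higher in 10 mM APAP (log2 difference 0.90 ± 0.19, 95% interval 0.52 to 1.29, adjusted p 0.000276). This call held under all 45 alternatives, with adjusted p up to 0.00241. MT2A fell over time in both treatments, and its 72 h level in 10 mM APAP lay below its levels there at 12, 24 and 48 h.

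At the earlier times MT2A did not differ beyond the test. Levels in 10 mM APAP were 13.77, 14.14 and 13.86 after 12 h, then 13.99, 14.21 and 13.58 after 24 h, then 13.64, 13.88 and 13.58 after 48 h. In DMSO they were 13.93, 14.13 and 13.84 after 12 h, then 13.50, 13.76 and 13.78 after 24 h, then 12.62, 13.70 and 13.76 after 48 h. In time order the log2 differences were -0.044 (95% interval -0.43 to 0.34, adjusted p 0.913), 0.24 (-0.14 to 0.63, 0.410) and 0.34 (-0.043 to 0.73, 0.192), and the groups overlapped each time. The 48 h difference was -0.025 without replicate 1 of DMSO, and 0.54 with an adjusted p of 0.0377 without replicate 3 of DMSO.

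MT1M was lower at 12 h, with log2 levels of 3.20, 3.20 and 2.51 in 10 mM APAP and 3.44, 4.03 and 3.29 in DMSO. The groups did not overlap (log2 difference -0.62 ± 0.21, adjusted p 0.0274), but both lay near or below the array median. The call did not hold without replicate 3 of 10 mM (-0.39, adjusted p 0.236) or without replicate 2 of DMSO (-0.40, 0.235). At 24, 48 and 72 h its log2 differences were -0.45, -0.26 and 0.14 (adjusted p 0.118, 0.409 and 0.684). The 24 h difference was -0.64 without replicate 1 of 10 mM at that time (adjusted p 0.0374).

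Of the 4 measured genes, limma called 1 lower at 12 h (12.4% of all genes), 1 lower at 24 h (13.7%), 2 lower at 48 h (14.9%) and 1 higher at 72 h (17.0%). With 4 genes these counts are not a result about the family. The median log2 difference of the 4 genes was -0.33, -0.63, -0.80 and -0.16 at 12, 24, 48 and 72 h, and that of all genes lay between -0.013 and 0.013.

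Averaged over the 4 times, all 4 genes differed between 10 mM APAP and DMSO. The log2 difference was 0.36 ± 0.09 (SE) for MT2A (adjusted p 0.00186), -0.72 ± 0.20 for MT1E (0.00377), -0.96 ± 0.20 for MT1G (0.000164) and -0.30 ± 0.11 for MT1M (0.0202). MT2A was thus higher, where 23.8% of all genes were called higher, and 3 MT1 genes were lower, where 22.1% were called lower. The MT1M average was lost without replicate 3 of 10 mM at 12 h (adjusted p 0.0540) or replicate 2 of DMSO at 12 h (0.0536). With replicate 1 of DMSO at 48 h left out, the averages were 0.27 for MT2A, -0.92 for MT1E, -1.18 for MT1G and -0.36 for MT1M. Without the 6 arrays with weak spike-ins the MT2A average was 0.24 (adjusted p 0.00945). It then came almost wholly from 72 h, with MT2A log2 differences of 0.031, 0.015, 0.0048 and 0.90 at 12, 24, 48 and 72 h.

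**Figure D2:**
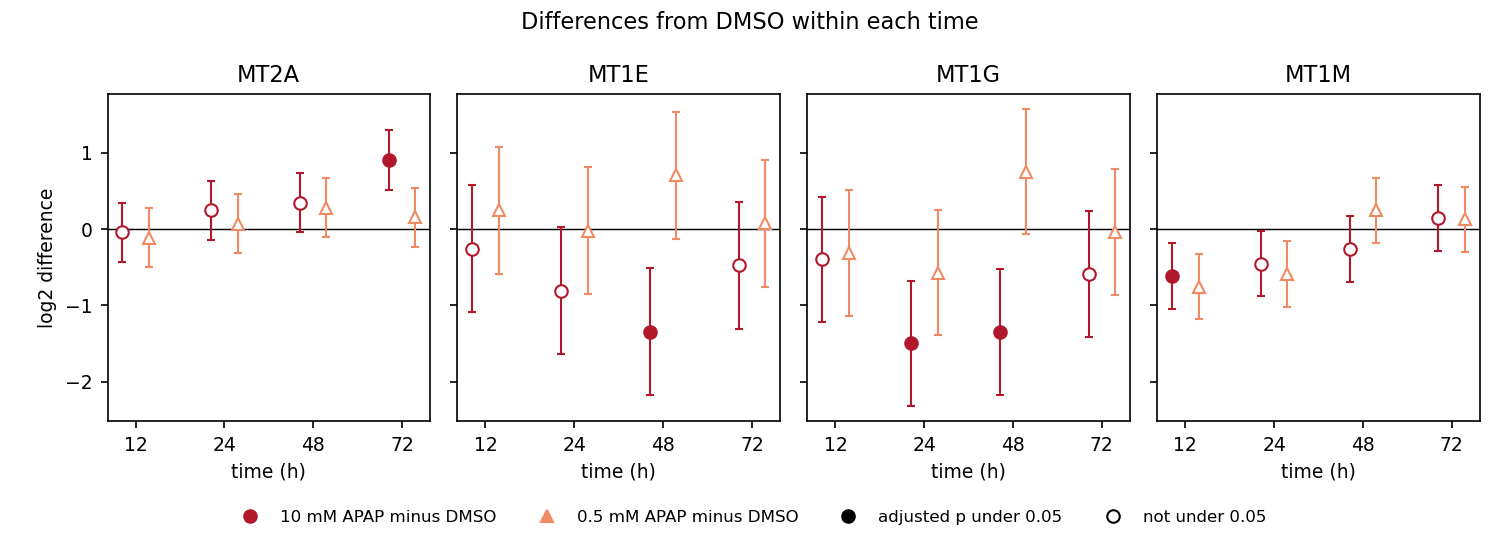
Log2 difference from DMSO (y axis) at each time (x axis) for 10 mM and 0.5 mM APAP, 1 panel per gene; points are differences of group means (n = 3 each), bars are 95% intervals from the limma fit and filled points have an adjusted p under 0.05. The 10 mM points of MT1G and MT1E lie below 0 at all 4 times, the MT2A point at 72 h lies above it, and no 0.5 mM point is filled.

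Whether the high-dose difference itself changed with time was tested by a moderated F test of limma. None of the 4 genes passed, against 21.3% of all genes: adjusted p was 0.0526 for MT2A, 0.530 for MT1E, 0.376 for MT1G and 0.244 for MT1M, and MT2A alone had an unadjusted p under 0.05. The MT2A answer turned on the settings of the fit. Over the same 36 arrays its adjusted p was 0.0250 with the replicate number as a block, 0.0449 with median centring, 0.0283 with a second quantile normalization, 0.0311 with the filter on low levels, 0.0420 with a trend and robust prior and 0.00668 with array weights. It also passed with any one of 8 arrays left out: replicate 2 of 10 mM at 12 h (0.0415), replicates 2 (0.0362) and 3 (0.0465) of 10 mM at 24 h, replicate 3 of 0.5 mM at 72 h (0.0428), replicate 1 of DMSO at 24 h (0.0498), and replicates 1 (0.000713), 2 (0.0365) and 3 (0.0287) of DMSO at 48 h. Without replicate 1 of DMSO at 48 h the adjusted p was 0.00314 for MT1E and 0.000340 for MT1G, which then also passed, and 0.129 for MT1M. With array weights over all 36 arrays, MT1E (0.00583) and MT1G (0.00429) passed as well.

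The doses were also set against each other, a comparison in which no DMSO array forms the difference. At 48 h MT1G levels were 8.08, 9.14 and 8.26 in 10 mM APAP and 10.43, 10.94 and 10.42 in 0.5 mM APAP. MT1E levels were 4.07, 5.41 and 4.37 in 10 mM APAP and 6.57, 6.77 and 6.65 in 0.5 mM APAP. In both genes every 10 mM array lay below every 0.5 mM array, with log2 differences of -2.10 ± 0.40 for MT1G (4.29-fold lower, adjusted p 0.000124) and -2.05 ± 0.41 for MT1E (4.14-fold lower, 0.000199). These calls held under all 45 alternatives, with adjusted p up to 0.0344 and 0.0301. That is 2 of the 4 genes, against 14.3% of all genes called lower.

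MT1M levels at 48 h were 2.15, 2.34 and 2.23 in 10 mM APAP, against 2.63, 2.95 and 2.65 in 0.5 mM APAP. The groups did not overlap, and its log2 difference of -0.51 had an adjusted p of 0.0718, or 0.0271 with the replicate number as a block and 0.0432 without replicate 1 of DMSO at 48 h. MT2A did not differ between the doses at 48 h beyond the test, with a log2 difference of 0.063 (95% interval -0.32 to 0.45, adjusted p 0.863).

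At 72 h MT2A levels were 13.05, 13.16 and 12.93 in 10 mM APAP and 12.18, 12.11 and 12.59 in 0.5 mM APAP. It was 1.69-fold higher at the high dose (log2 difference 0.75 ± 0.19, adjusted p 0.00217), and the doses did not overlap. This call held under all 45 alternatives, with adjusted p up to 0.0179. The highest 0.5 mM value came from replicate 3, whose actin control rows differed by 3.97 on the log2 scale between the 3' and 5' ends. MT2A was 1 of 4 genes called higher, against 16.3% of all genes.

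At 12 and 24 h none of the 4 genes was called between the doses by limma, against 24.3% and 27.6% of all genes called in either direction. At an unadjusted p under 0.05 there was no gene at 12 h and 1 at 24 h, MT1G. At 24 h MT1G levels were 9.83, 10.34 and 9.44 in 10 mM APAP and 10.76, 11.04 and 10.58 in 0.5 mM APAP, without overlap (log2 difference -0.93, adjusted p 0.0903). MT1E levels at that time were 5.96, 6.31 and 5.45 in 10 mM and 6.66, 6.96 and 6.47 in 0.5 mM, again without overlap (-0.79, adjusted p 0.170). Without replicate 1 of DMSO at 48 h the adjusted p was 0.00232 for MT1G and 0.0284 for MT1E, and without replicate 3 of that group it was 0.0499 for MT1G.

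The low dose was compared with the solvent to ask whether the lower concentration moved the same genes. None of the 4 was called at any time by limma. The share of all genes called in either direction was 0.00529%, 0.0159%, 3.45% and 0.761% in time order. Averaged over times none of the 4 was called (adjusted p 0.204 or higher), against 6.21% of all genes. At an unadjusted p under 0.05 MT1M was the 1 gene at 12 h, at 24 h and on average, and there was none at 48 or 72 h. Without replicate 1 of DMSO at 48 h, 201 of all genes were called at that time instead of 652. The average was then -0.27 instead of -0.043 for MT1G (limma, adjusted p 0.257) and -0.31 instead of -0.24 for MT1M (0.0676).

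MT1M levels at 12 h were 2.84, 3.02 and 2.64 in 0.5 mM APAP and 3.44, 4.03 and 3.29 in DMSO. At 24 h they were 1.98, 2.56 and 2.51 in 0.5 mM APAP and 3.01, 3.13 and 2.70 in DMSO. The groups did not overlap at either time, with log2 differences of -0.75 (95% interval -1.18 to -0.32, adjusted p 0.650) and -0.59 (-1.02 to -0.16, adjusted p 0.588). Only 5 of the 18919 genes, MT1M included, had a difference this low or lower at 12 h. These are dim signals, and neither value passed the adjustment. The 10 mM differences from DMSO at 12 and 24 h were no larger, -0.62 and -0.45, and only the first was called. The adjustment ran within each comparison. Between the doses, 10 mM minus 0.5 mM APAP, MT1M was 0.13 at 12 h and 0.14 at 24 h (limma, adjusted p 0.741 and 0.704). The arrays overlapped both times, so the call at 10 mM alone shows no difference between the doses.

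MT1G levels at 12 h were 11.87, 11.85 and 11.65 in 0.5 mM APAP, and at 24 h 10.76, 11.04 and 10.58. The DMSO arrays gave 12.16, 12.26 and 11.90 after 12 h, then 11.14, 11.52 and 11.44 after 24 h. The low-dose arrays were the lower ones without overlap, with log2 differences of -0.32 and -0.57 that did not pass (adjusted p 0.9999 and 0.913). Here and elsewhere, absence of overlap between 3 and 3 arrays is a description. The share of all genes without overlap is not given.

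At 48 h the log2 difference between 0.5 mM APAP and DMSO was 0.28 for MT2A, 0.71 for MT1E, 0.75 for MT1G and 0.24 for MT1M (adjusted p 0.412 to 0.696). Without replicate 1 of DMSO the 4 values were -0.088, -0.11, -0.14 and -0.012, so no direction can be given. A change of the low-dose difference with time was called for none of the 4 genes by the F test of limma, against 0.0846% of all genes called: adjusted p was 0.381 for MT1M and 0.961 or higher for the others, and MT1M alone had an unadjusted p under 0.05 (0.00342).

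MT1E and MT1G moved together. Over the 12 group means their log2 levels correlated with r = 0.97, and the deviations of the 36 arrays from their group means correlated with r = 0.92, or 0.87 without replicate 1 of DMSO at 48 h. For MT2A and MT1G the correlation was 0.75 over group means and 0.84 over deviations, or 0.73 without that array, and for MT2A and MT1E it was 0.81, 0.84 and 0.74. MT1M had 0.61 to 0.84 with the other genes over group means and 0.47 to 0.53 over deviations, or 0.31 to 0.39 without that array. The points share arrays, culture times and possibly probe signal, so these are descriptions of the 36 arrays.

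**Figure D3:**
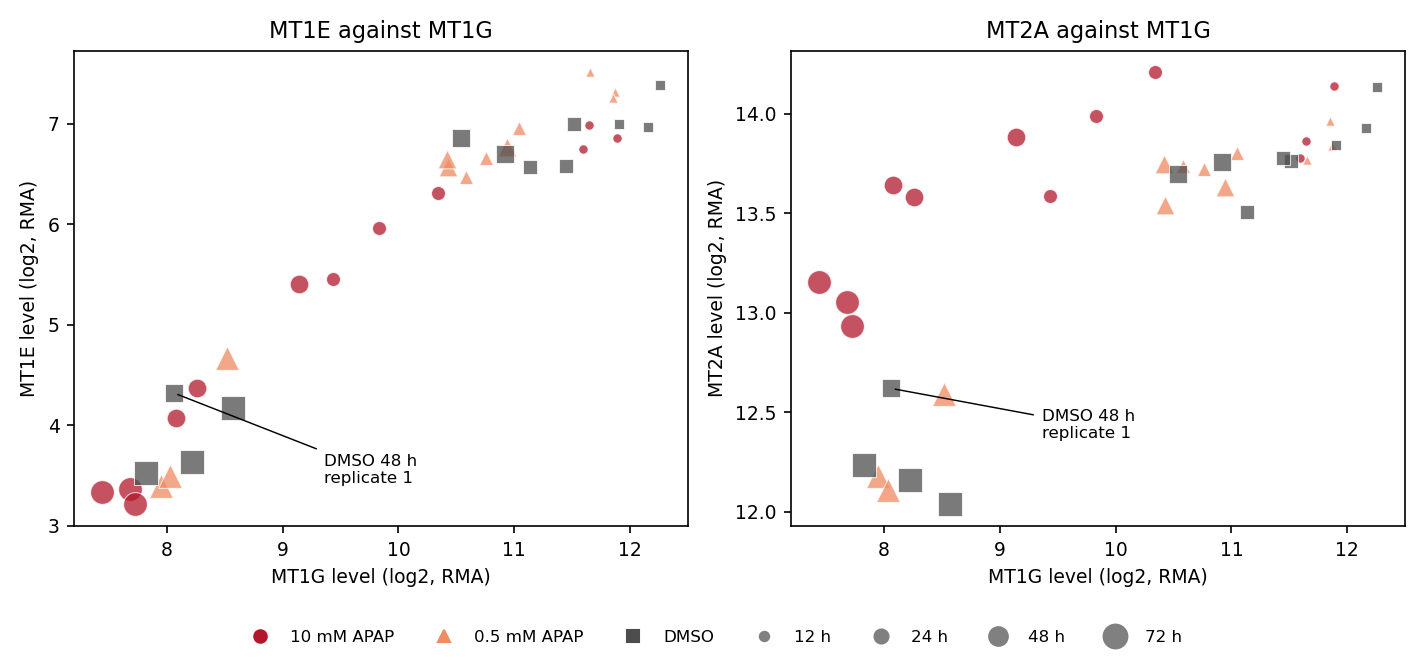
Log2 level of MT1E (left panel) and of MT2A (right panel) on the y axis against the log2 level of MT1G on the x axis, 1 point per array (36), coloured by treatment. MT1E follows MT1G over its whole range (r = 0.97 over 12 group means), whereas MT2A at 72 h in 10 mM APAP lies above the arrays of other treatments with a like MT1G level, and replicate 1 of DMSO at 48 h is marked.

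The averaged profile of the 4 genes was the mean of their centred log2 levels in each of the 12 groups. The levels were not scaled, so MT1G and MT1E, whose group means ranged furthest, weigh most in it. It was compared with the 5105 genes whose means varied with an SD of at least 0.3 on the log2 scale. Replicate 1 of DMSO at 48 h was included, and no version without it was run. The most similar profiles were those of ENSG00000175354_at (r = 0.98) and ENSG00000160678_at (r = 0.97), and the fifth had r = 0.96. The table pairs these identifiers with no name. Profiles over 12 groups that all decline at 72 h share that decline, and the correlations are descriptions.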

How the data were processed

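The authors deposited log2 expression levels made by RMA, per the submitters' processing notes, with 1 column per array and 1 row per gene identifier (18981 rows, of which 62 were control rows). RMA gives every array much the same distribution of levels and would hide a common shift of most genes. The sources used here give neither the probe set definition nor the annotation or build. Groups came from titles and labels, which call the 3 arrays of a group biological replicates.

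One linear model with a mean per group was fitted to all 18919 genes and 36 arrays (limma 3.58.1 under R 4.3.3, lmFit and eBayes, 24 residual degrees of freedom). It was tested beforehand on simulated arrays with independent noise. These held no outlying array and no pairing, so that test says nothing about either. The Benjamini-Hochberg adjustment ran over all genes, genes with an adjusted p under 0.05 were called, and intervals are 95%. The replicate numbers were taken to pair the arrays in the 7 of 12 within-time comparisons where all 3 same-numbered pairs of deviations from group means correlated over 0.1 (30 of all 36 pairs, range -0.03 to 0.35). The main fit did not use this pairing, which entered only through the replicate block among the alternatives. Alternatives fitted the 9 arrays of a time on their own, added the replicate block, centred arrays on their median, repeated quantile normalization, or used a filter keeping genes at log2 5 or more on 3 arrays, a trend and robust prior or array weights. Others left out arrays with weak spike-ins (dap rows under log2 7), arrays with unequal actin ends (over log2 3), or each array in turn.

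The members, lists and tests were chosen with earlier results of these data known. All 8 members are named by rule. Lists of metal-handling genes and cell type markers were not run, since the reference table held 0 Ensembl identifiers in 59792 rows, so the HepG2 label was not checked against markers. Figures were drawn with matplotlib 3.10.9.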

Additional observations from a re-analysis of the deposited data

How the results depend on the processing

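Median centring and a second quantile normalization changed no call of a difference between treatments within a time, changed the MT2A call for a change of the 10 mM difference with time (given below), and moved the median of all genes by less than 0.1. The number of the 4 genes called between 10 mM APAP and DMSO at 12 h was 1, against 2 (MT1G, MT1M) in the 9 arrays of that time alone, 0 with the filter, which removes MT1M, and 0 to 1 with an array left out. At 24 h it was 1, against 2 (MT1E, MT1G) in that time alone, with array weights or without the arrays with weak spike-ins, and 1 to 2 with an array left out. At 48 h it was 2, against 0 in that time alone and 0 to 2 with an array left out. At 72 h it was 1, against 2 (MT2A, MT1G) in that time alone or without weak spike-ins, and 1 to 2 with an array left out. Between 10 mM and 0.5 mM APAP it was 0 at 12 h, against 1 (MT1E) in that time alone. At 24 h it was 0, against 2 (MT1E, MT1G) in that time alone, with array weights or without weak spike-ins, 1 (MT1G, adjusted p 0.0294) with the replicate block, where the numbers pair the arrays no more than in part, and 0 to 2 with an array left out. At 48 h it was 2, and 2 to 3 with an array left out.

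For a change of the 10 mM difference with time the count was 0. It was 1 (MT2A) with the replicate block (adjusted p 0.0250), median centring (0.0449), quantile normalization (0.0283), the filter (0.0311), the trend and robust prior (0.0420) or without unequal actin ends (0.0482), 3 (MT2A, MT1E, MT1G) with array weights or without weak spike-ins, and 0 to 3 with an array left out. The replicate block also gave MT1M an adjusted p of 0.0236 over times in 0.5 mM APAP, and changed no other call of these genes than those given here and for MT1M between the doses at 48 h. Without weak spike-ins the MT1M level over times had an adjusted p of 0.272 in 10 mM APAP and 0.0497 in 0.5 mM APAP.

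Values not past the threshold changed sign. MT2A between 10 mM APAP and DMSO at 12 h was 0.031 without weak spike-ins and -0.15 to 0.038 with an array left out, and at 48 h -0.025 to 0.54. Between 0.5 mM APAP and DMSO at 48 h, without weak spike-ins, MT2A was -0.088, MT1E -0.11, MT1G -0.14 and MT1M -0.012, with left-out ranges of -0.088 to 0.48, -0.11 to 1.16, -0.14 to 1.29 and -0.012 to 0.39. MT2A between the doses at 48 h was -0.0073 with array weights and -0.027 to 0.12 with an array left out. The cause of these changes was not tested.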
